A study of Mus musculus with 6 samples.

Results

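Described here are 10 genes of the neuronal cytoskeleton and of early neurons, taken by symbol: Tubb3, Dcx, Stmn2, Stmn3, Map2, Mapt, Elavl3, Nes, Ncam1 and Nefm. The deposited count tables hold 55471 gene identifiers and each of the 10 symbols matched one. The RNA came from mouse epiblast stem cells (EpiSC), a pluripotent cell type close to the epiblast at gastrulation, after 2 days of differentiation in serum as embryoid bodies. Of 6 libraries, 3 were labelled Mixl1 KO and 3 Mixl1 induced D1Dox. Mixl1 is a homeobox gene of the primitive streak, where mesoderm and endoderm arise. In both groups the stem cells were grown with bFGF (10 ng/mL) and Activin A (20 ng/mL) over a layer of irradiated embryonic fibroblasts from mice, and aggregates were formed over 24 h. The induced group came from a line with doxycycline-inducible Mixl1 that received the drug at 1 µg/mL over the 24 h before collection. Whether the knockout cells also received doxycycline, which part of Mixl1 they lack, how the inducible line is built and whether either group comes from more than a single clone are not stated in the labels. Line, Mixl1 and possibly drug therefore differ together and cannot be told apart. Whether the triplicates are separate cultures is not said, and the p-values therefore cover the spread of these libraries alone, which may be technical.

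Each library had between 17490426 and 21026423 reads on genes. Libraries of the same group differed beyond counting noise, as repeat preparations from a single culture may also do, and each was counted as 1 sample: chi-square over degrees of freedom was 2.24 to 5.17 for pairs within groups and 78.8 to 91.0 across them. Mixl1 itself had 668 to 817 reads in the knockout and 7720 to 8860 in the induced libraries, a log2 fold change of 3.44 (SE 0.055, edgeR, adjusted p = 1.66e-22). Reads over the whole gene do not check a deletion of unknown extent. Pou5f1, a defining pluripotency gene of the labelled cell type, was at 1294 ± 44.5 CPM in knockout and 807.1 ± 21.7 CPM in induced libraries (SD, n = 3). CPM values are read counts scaled to a common library size, which TMM adjusts for differences in RNA composition.

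A neuron grows axons and dendrites on a scaffold of microtubules and intermediate filaments. Microtubules are built from alpha- and beta-tubulin, stabilised by proteins such as MAP2, tau and doublecortin, and destabilised by stathmins. Dividing neural progenitors carry the filament protein nestin, and neurons replace it with neurofilaments as they leave the cell cycle and extend processes. Proteins of the ELAV family bind and stabilise mRNAs in young neurons, and NCAM1 joins neighbouring neural cells. Not all of these genes are strictly neuronal: nestin and NCAM1 also occur in muscle precursors.

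The 10 genes did not move together. In the induced libraries Tubb3, Elavl3, Mapt, Nefm and Ncam1 rose, and Dcx, Nes, Map2, Stmn3 and Stmn2 fell. Each of the 10 passed the filter on low counts and an adjusted p of 0.05 in edgeR's quasi-likelihood test, but so did 62.6% of the 15091 genes tested, so the count of calls is no result about these 10. Of all tested genes 31.0% rose and 31.6% fell. The median log2 fold change of the 10 genes was 0.34, against 0.00 for all tested genes, and their median absolute log2 fold change was 0.94, against 0.32. The 10 genes were chosen with earlier results of these data known, so these differences are a description and not a test. An estimated change of at least 2-fold was found for 4 of them (Dcx, Tubb3, Elavl3 and Mapt), where 16.1% of tested genes had a call of that size. Tested against a 2-fold change, 3 passed (Dcx, Tubb3 and Elavl3), and 10.8% of tested genes did. For 9 of the 10, Stmn2 being the exception, all libraries of one group lay above those of the other, as they did for 67.1% of tested genes.

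The 5 rises held in each of the 15 alternative analyses other than the test against a 2-fold change. The 5 falls did not: the call for Stmn2 or Stmn3, or both, was lost under several settings given with those genes below, and 3 falls (Dcx, Nes and Map2) were called without knockout replicate 1 and without induced replicate 3, as with DESeq2 or limma-voom. RNA was taken from whole aggregates, so fewer cells of a type and less RNA per cell cannot be told apart for any gene here.

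**Figure D1:**
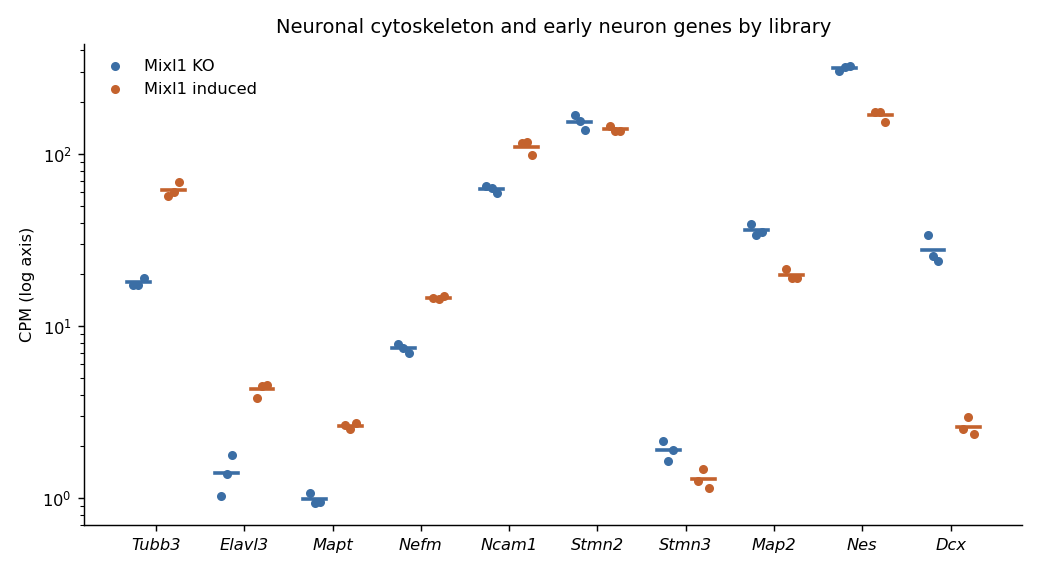
CPM on a log axis for the 10 genes, ordered by fold change. Each point is a library (3 Mixl1 KO in blue, 3 Mixl1 induced in orange) and each bar a group mean. Tubb3 at the left rose from a mean of 17.9 to 62.1 CPM, Dcx at the right fell from 27.8 to 2.61 CPM, and for Stmn2 the groups overlap.

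The sequences before the start sites of the gene with the largest rise (Tubb3), of the other gene that rose past the 2-fold test (Elavl3) and of the gene with the largest fall (Dcx) are printed so that the motif matches can be seen in place. RefSeq promoters (GRCm38.p6, the mm10 assembly) were found for 6 of the 10 genes, 7 start sites in all, and the 250 bases before each start were searched on both strands for 4 motifs. These were the arms of RE1, the element bound by REST, a repressor of neuronal genes in other cells (TTCAGCACC and GGACAGCGC), the E-box CAGCTG of proneural bHLH factors, and the homeodomain core TAATTA. Neither RE1 arm was found in the 6 genes. The arms occur in only 0.301% and 0.304% of 32851 promoters, so their absence from 7 windows says nothing about these genes. Sequence outside the 250 bases was not searched. The E-box was found in Elavl3 only, and 13.0% of all promoters hold it. TAATTA was found at both Dcx starts, which overlap and share the match, and 4.84% of all promoters hold it. The RefSeq starts of Tubb3 and Dcx lie inside the annotated gene spans given below. Part of each of these windows, with the Dcx match, therefore lies within the annotated gene. A match in letters is a description of the window, not a bound site. Capitals mark the matches, 5′ to 3′ on the gene's strand, and in Tubb3 none of the 4 motifs was found.
Tubb3 (chr8:123411303-123411552, plus strand): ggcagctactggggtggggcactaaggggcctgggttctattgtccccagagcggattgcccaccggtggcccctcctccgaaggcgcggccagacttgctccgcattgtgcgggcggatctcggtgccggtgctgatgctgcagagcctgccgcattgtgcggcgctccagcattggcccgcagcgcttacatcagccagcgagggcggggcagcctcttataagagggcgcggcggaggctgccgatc
Elavl3 (chr9:22052024-22052273, minus strand): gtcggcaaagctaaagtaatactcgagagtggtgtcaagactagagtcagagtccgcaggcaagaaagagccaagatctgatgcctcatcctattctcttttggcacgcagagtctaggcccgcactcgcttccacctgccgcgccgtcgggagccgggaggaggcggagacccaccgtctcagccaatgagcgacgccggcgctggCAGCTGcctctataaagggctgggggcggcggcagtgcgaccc
Dcx (chrX:143933125-143933374, minus strand): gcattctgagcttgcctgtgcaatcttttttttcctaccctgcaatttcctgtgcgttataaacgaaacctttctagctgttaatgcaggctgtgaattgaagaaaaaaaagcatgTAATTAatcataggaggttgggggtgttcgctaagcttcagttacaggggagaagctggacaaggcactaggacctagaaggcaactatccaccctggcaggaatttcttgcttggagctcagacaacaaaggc
Base composition differed between these windows. GC made up 68.0% of the Tubb3 window, 61.6% of the Elavl3 window and 44.8% of the Dcx window, and the median over all promoters was 52.4%. CG dinucleotides numbered 21, 20 and 3.

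Tubb3 had the largest rise of the 10 genes. It encodes class III beta-tubulin, the isotype used as a marker of newly formed neurons, and lies on chromosome 8 from 123411424 to 123422015 (mm10, plus strand, ENSMUSG00000062380.4). Its reads numbered 356, 313 and 364 in the knockout libraries and 1177, 1060 and 1266 in the induced ones. In CPM these were 17.4, 17.2 and 19.2 against 56.7, 60.6 and 69.1, and the nearest libraries across the groups lay 37.6 CPM apart. The log2 fold change was 1.79 (SE 0.077, edgeR, adjusted p = 1.34e-14), a 3.46-fold rise, and 7.63% of tested genes changed by more.

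Other tubulin genes went both ways. Of 11 tested tubulin genes besides Tubb3, 6 rose, 2 fell and 3 did not pass, with a median log2 fold change of 0.19. Tubb5, the main beta-tubulin gene of dividing cells, was at 2629 ± 98.6 CPM in knockout and 3819 ± 175.4 CPM in induced libraries (SD, n = 3), a rise of 0.54 on the log2 scale (SE 0.048). Tuba1c rose from 250.7 to 353.6 CPM, and Tuba8, a rarely used alpha-tubulin gene, fell from 7.42 to 1.01 CPM (log2 fold change -2.87). Per kilobase of exon, Tubb3 made up 0.717%, 0.762% and 0.820% of the reads on 8 beta-tubulin genes in knockout and 1.84%, 2.02% and 2.10% in induced libraries. The share of Tubb3 was thus higher in every induced library and small beside that of Tubb5, at 63.1 ± 0.437% and 68.6 ± 0.175% (SD, n = 3). Tubulin genes resemble each other, and reads that fitted several places were not counted, so the levels of close copies such as Tubb2a and Tubb2b are uncertain.

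Dcx fell most. Doublecortin, its product, binds and stiffens microtubules in migrating young neurons. The gene lies on chromosome X from 143855842 to 143933311 (minus strand, ENSMUSG00000031285.14). Counts of 693, 466 and 455 in knockout libraries stood against 52, 52 and 43 in induced libraries, which is 33.8, 25.7 and 24.0 CPM against 2.51, 2.97 and 2.35 CPM. Knockout replicate 1 was the highest of the 6, and the groups lay far apart with or without it. A log2 fold change of -3.42 (SE 0.15, edgeR, adjusted p = 1.07e-12) corresponds to a 10.7-fold difference, and 1.90% of tested genes changed by more. Without knockout replicate 1 it was -3.26.

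The doublecortin-like kinases, which share the microtubule-binding domain of Dcx, went both ways. Dclk1 fell from 57.5 ± 1.28 CPM to 25.3 ± 1.47 CPM (SD, n = 3), with a log2 fold change of -1.18 (edgeR, adjusted p = 3.18e-13). Dclk2, named outside the rule for named genes after its value was seen, rose from 29.7 to 48.5 CPM (log2 fold change 0.71). Dclk3 had too few reads to be tested. Counted per kilobase over Dcx, Dclk1 and Dclk2, the share of Dcx was 28.3%, 23.0% and 23.5% in knockout and 3.01%, 3.63% and 2.94% in induced libraries, while that of Dclk2 went from 32.1 ± 2.54% to 71.2 ± 1.05% (SD, n = 3).

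Of the stathmin genes, Stmn1, Stmn2 and Stmn3 were called lower, the last pair with calls that several settings ended, and Stmn4 was not tested. Stmn2, known as SCG10, encodes a growth cone protein that keeps microtubule ends dynamic, and lies on chromosome 3 from 8509360 to 8561606 (plus strand, ENSMUSG00000027500.10). It had 3443, 2810 and 2625 reads in knockout and 3035, 2381 and 2493 in induced libraries. In CPM, 168.0, 154.9 and 138.2 stood against 146.3, 136.1 and 136.1, so knockout replicate 3 lay below induced replicate 1. The log2 fold change was -0.14 (SE 0.060, edgeR, adjusted p = 0.0493), 74.7% of tested genes changed by more, and the call was lost without knockout replicate 1 (log2 fold change -0.08, adjusted p = 0.257) or 2 (adjusted p = 0.0949) and without induced replicate 2 (adjusted p = 0.170) or 3 (adjusted p = 0.126). Without knockout replicate 3 the log2 fold change was -0.21. The adjusted p was 0.0555 from unstranded counts, 0.0679 with DESeq2 and 0.0606 with limma-voom.

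Stmn3, or SCLIP, a related stathmin of neurites, was scarce. It lies on chromosome 2 from 181306459 to 181314500 (minus strand, ENSMUSG00000027581.12). Its 44, 30 and 36 knockout reads came to 2.15, 1.65 and 1.89 CPM, and its 26, 26 and 21 induced reads to 1.25, 1.49 and 1.15 CPM. Every knockout library lay above every induced one, with a gap of 0.17 CPM between the nearest pair. Its log2 fold change was -0.56 (SE 0.24, edgeR, adjusted p = 0.0462), and this call too was lost without knockout replicate 1 (adjusted p = 0.159) or 3 (adjusted p = 0.0759) and without induced replicate 1 (adjusted p = 0.109) or 3 (adjusted p = 0.125). Its adjusted p was 0.0539 with the replicate number as a block, 0.0813 with no filter on low counts, 0.149 with DESeq2 and 0.0521 with limma-voom.

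Stmn1, the stathmin of dividing cells, fell from 179.1 ± 7.08 CPM to 146.1 ± 12.5 CPM (SD, n = 3), by 0.29 on the log2 scale (edgeR, adjusted p = 0.00011), and Stmn4 was not tested, at 0.210 and 0.306 CPM. The share of Stmn2 among the 4 stathmin genes per kilobase was 22.4 ± 2.28% in knockout and 24.5 ± 2.43% in induced libraries (SD, n = 3), with overlapping ranges.

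Map2 and Mapt, which encode related microtubule-binding proteins of dendrites and axons, moved in opposite directions. Map2 lies on chromosome 1 from 66175273 to 66442583 (plus strand, ENSMUSG00000015222.18) and had 801, 613 and 666 reads in knockout and 443, 332 and 349 in induced libraries. It fell from 39.1, 33.8 and 35.1 CPM to 21.4, 19.0 and 19.1 CPM, with a log2 fold change of -0.86 (SE 0.077, edgeR, adjusted p = 2.5e-09). All 3 induced libraries lay well below the knockout range.

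Mapt, the tau gene, lies on chromosome 11 from 104231390 to 104332090 (plus strand, ENSMUSG00000018411.17) and was the gene with the fewest reads per kilobase in knockout libraries. Only 22, 17 and 18 reads were counted there, against 55, 44 and 50 in induced libraries. That is 1.07, 0.937 and 0.947 CPM against 2.65, 2.51 and 2.73 CPM. Its log2 fold change of 1.41 had a wide error (SE 0.23, edgeR, adjusted p = 1.29e-05), and the gene did not pass the test against a 2-fold change (edgeR, adjusted p = 0.107).

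Among 20 other tested genes for microtubule-associated and growth cone proteins, 11 rose, 6 fell and 3 did not pass. Map6, which stabilises microtubules in neurons, rose from 9.13 ± 2.07 CPM to 65.9 ± 2.18 CPM (SD, n = 3), with a log2 fold change of 2.86 (SE 0.099, edgeR, adjusted p = 3.67e-14). Gap43, a membrane protein of growing axons, rose from 24.9 to 61.4 CPM (log2 fold change 1.30). Dpysl3, a collapsin response mediator gene, fell from 104.4 to 43.4 CPM (log2 fold change -1.26), and Map7, which recruits kinesin to microtubules, fell from 8.94 to 3.71 CPM (log2 fold change -1.27). This list also split between rises and falls, with a median log2 fold change of 0.22.

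The filament genes separated nestin from neurofilament. Nes encodes nestin, the intermediate filament protein of neural stem cells, and lies on chromosome 3 from 87971078 to 87980451 (plus strand, ENSMUSG00000004891.16). With 6246, 5849 and 6184 reads in knockout and 3657, 3053 and 2799 in induced libraries it had the most reads of the 10 genes. It stood at 304.7, 322.3 and 325.5 CPM in knockout and 176.3, 174.5 and 152.8 CPM in induced libraries, and its log2 fold change was -0.92 (SE 0.053, edgeR, adjusted p = 1.79e-12). Vim, encoding vimentin, which forms filaments together with nestin, fell from 1894 ± 105.3 CPM to 985.3 ± 16.8 CPM (SD, n = 3), by 0.94 on the log2 scale. Nes made up 11.05 ± 0.728% of the reads per kilobase on Nes and Vim in knockout and 11.18 ± 0.647% in induced libraries (SD, n = 3), so the ratio of the pair differed by less than its spread.

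Nefm, the gene of the medium neurofilament chain, rose. Its annotated span on chromosome 14 is 68082590 to 68124846 (minus strand, ENSMUSG00000022054.11). Knockout libraries had 161, 136 and 133 reads of it and induced libraries 301, 251 and 273, or 7.85, 7.49 and 7.001 CPM against 14.5, 14.3 and 14.9 CPM. Both groups were tight, and the log2 fold change was 0.97 (SE 0.10, edgeR, adjusted p = 3.65e-08). Of 6 other tested genes of neural intermediate filaments, Vim fell and 5 rose. The median over these 6 genes was 0.67. Nefl, the light chain gene, rose from 74.3 ± 6.82 CPM to 111.0 ± 2.64 CPM (SD, n = 3), with a log2 fold change of 0.58 (SE 0.058, edgeR, adjusted p = 1.4e-08). The other risers, named after their values were seen, were Nefh (log2 fold change 1.32), Ina (0.75), Prph (0.57) and Synm (0.83). Gfap, the filament gene of astrocytes, was not tested, with 0.243 and 0.261 CPM.

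Nefm and Nefl overlap in the annotation on opposite strands. Their exons share 1108 bases, 19.2% of the exonic length of Nefm, and the reads were counted by strand here. On the strand opposite Nefm, 687, 677 and 593 reads were counted in knockout and 1128, 1010 and 988 in induced libraries, about 4 times the reads on its own strand. At the other 9 genes that strand held 0 to 28 reads over the 6 libraries together. Counting without strand left Nefm nearly as it was, at 99.4% of its stranded reads, and Nefl with 51.9% of its stranded reads (5475 of 10550). Ncam1 kept 78.7% and Map2 95.4% in that count, while the remaining genes kept 99.4% or more. Ncam1 shares 417 exonic bases with Gm11149 on the other strand, and Map2 shares 124 with Gm10558.

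**Figure D2:**
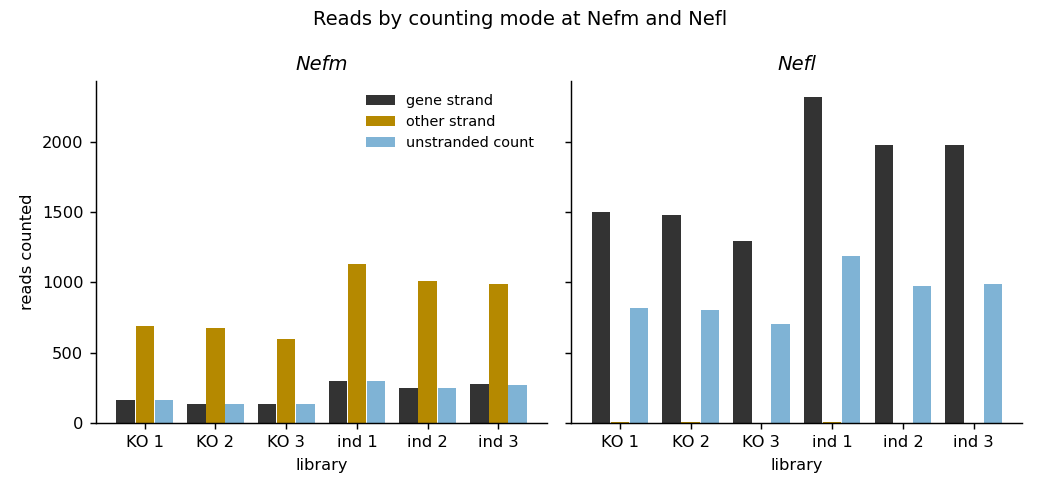
Reads counted in each library (KO 1 to 3, induced 1 to 3) at Nefm and at Nefl on the gene's strand, on the other strand and without regard to strand. The other strand of Nefm held 593 to 1128 reads, and the unstranded count of Nefl was 51.9% of its stranded count over the 6 libraries.

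Elavl3 rose as well. It encodes HuC, an RNA-binding protein of postmitotic neurons, and lies on chromosome 9 from 22015005 to 22052023 (minus strand, ENSMUSG00000003410.8). Few reads were counted: 21, 25 and 34 in knockout and 79, 79 and 83 in induced libraries. The corresponding CPM values of 1.02, 1.38 and 1.79 against 3.81, 4.51 and 4.53 do not overlap, although the knockout values had the largest relative spread of any of the 10 genes, with a coefficient of variation of 27.4%. The log2 fold change was 1.62 (SE 0.21, edgeR, adjusted p = 7.78e-07).

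The ELAV family did not move as a whole. Elavl4, a neuronal member named after its value was seen, rose from 0.805 to 3.98 CPM (log2 fold change 2.28, SE 0.25). Elavl2, which is also neuronal (log2 fold change 0.16), and the widely expressed Elavl1 (-0.11) did not pass. Per kilobase over the neuronal genes Elavl2, Elavl3 and Elavl4, the share of Elavl3 was 12.0 ± 3.04% in knockout and 21.8 ± 2.43% in induced libraries, and that of Elavl2 was 79.1 ± 1.58% and 52.6 ± 1.13% (SD, n = 3). Neither pair of ranges overlapped. Of 15 other tested ELAV and neural RNA-binding genes 7 rose, 3 fell and 5 did not pass, with a median log2 fold change of 0.16. Celf3, a splicing factor of neurons, rose from 1.51 to 8.20 CPM (log2 fold change 2.43), and the progenitor genes Msi1 and Msi2 rose by 0.38 and 0.43 on the log2 scale. Rbfox1, a splicing factor of neurons and muscle, fell from 10.5 to 5.42 CPM (log2 fold change -0.95).

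Ncam1, the neural cell adhesion molecule gene, lies on chromosome 9 from 49502136 to 49798925 (minus strand, ENSMUSG00000039542.16). Its reads were 1339, 1146 and 1122 in knockout and 2396, 2053 and 1806 in induced libraries. At 65.3, 63.2 and 59.1 CPM against 115.5, 117.3 and 98.6 CPM, the groups stood clearly apart. The log2 fold change was 0.82 (SE 0.063, edgeR, adjusted p = 6.47e-10). NCAM1 carries polysialic acid in the developing nervous system, and the genes of both polysialyltransferases moved in opposite directions. St8sia2 rose from 6.98 ± 0.326 CPM to 11.8 ± 1.28 CPM (SD, n = 3), by 0.76 on the log2 scale. St8sia4 fell from 7.44 ± 0.918 CPM to 1.86 ± 0.187 CPM (SD, n = 3), by 1.99 on the log2 scale. Over 10 other tested genes of neural adhesion and polysialic acid, 5 rose, 3 fell and 2 did not pass, with a median log2 fold change of 0.22. Mdga1, a membrane protein of migrating neurons, rose from 12.8 to 30.4 CPM (log2 fold change 1.25). Ncam2, the paralog, had no read in any library.

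Levels of different genes were compared per kilobase of annotated exon, with all annotated exons of a gene joined, so a gene with long exons that are little used reads low on this scale. In knockout libraries Nes was highest at 49.5 CPM per kilobase, followed by Stmn2 (27.4), Tubb3 (9.60), Ncam1 (7.22), Dcx (2.20), Map2 (2.19), Stmn3 (1.67), Nefm (1.29), Elavl3 (0.203) and Mapt (0.131). Dcx and Map2 were the only neighbours in that order whose libraries overlapped. In induced libraries Tubb3 stood first at 33.3 CPM per kilobase, ahead of Nes (26.2), Stmn2 (24.9), Ncam1 (12.8) and Nefm (2.52). Map2 (1.20), Stmn3 (1.14), Elavl3 (0.622), Mapt (0.349) and Dcx (0.206) followed. There Nes and Stmn2, and Map2 and Stmn3, overlapped. Dcx moved from the fifth place to the last, and Tubb3 from the third to the first. Mapt and Elavl3, far below Nes in both groups, rose without reaching the level of Nefm.

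**Figure D3:**
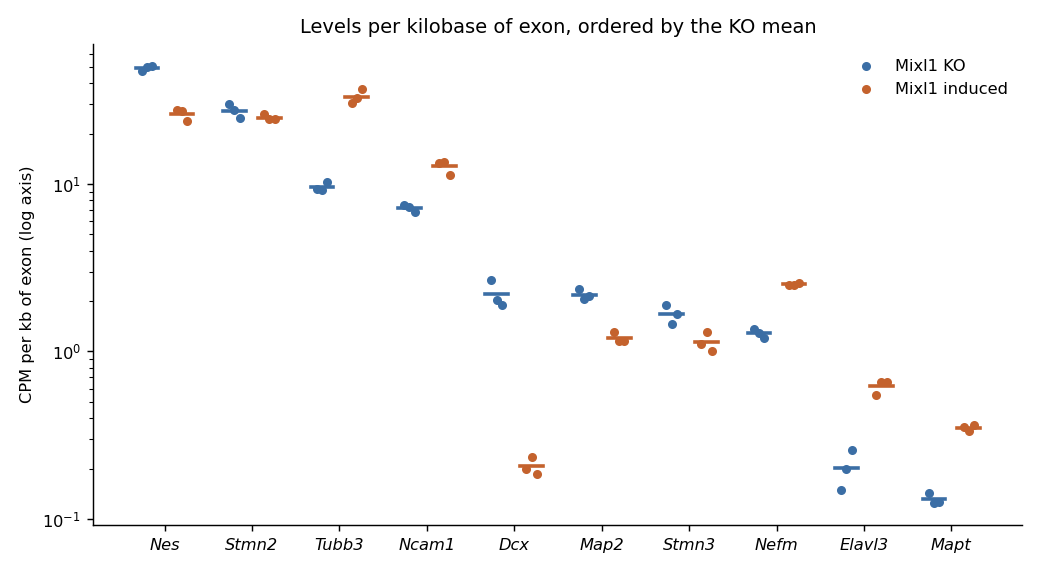
CPM per kilobase of annotated exon on a log axis, ordered by the knockout mean. Points are libraries (3 per group) and bars are means. Tubb3 went from 9.60 to 33.3 CPM per kilobase and passed Nes and Stmn2, and Dcx fell from 2.20 to 0.206.

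The regulators that accompany neuron formation were also listed. Of 20 tested proneural and neuronal transcription factor genes 15 rose, 2 fell and 3 did not pass, with a median log2 fold change of 2.02, and 9 more were not tested. Phox2a, a homeobox gene of noradrenergic neurons, rose from 3.14 ± 0.262 CPM to 30.2 ± 0.667 CPM (SD, n = 3). So did Neurod4, a neuronal bHLH gene, from 0.068 to 7.84 CPM. Hes6, which promotes neuronal differentiation, fell from 64.2 to 31.6 CPM (log2 fold change -1.03), and Scrt1, a neuronal repressor gene, from 3.15 to 0.997 CPM (log2 fold change -1.66).

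Genes listed for neural progenitors were mostly higher while Nes was lower. Which cells of the aggregates held their RNA was not tested. Of 18 tested neural progenitor genes 11 rose, 1 fell and 6 did not pass, with a median log2 fold change of 0.82. Sox2 (1.86), Sox1 (1.96), Irx3 (3.43) and Prom1 (0.85) rose on the log2 scale, and Sox3 (-3.28) fell. Pax6, at 0.588 CPM in knockout and 0.623 CPM in induced libraries, and Fabp7, at 7.52 and 8.57 CPM, did not pass. Nor did Hes1, Pax3, Zic1 and Lhx2, and Hes5 was not tested. Of 10 genes of the REST complex 3 rose, 3 fell and 4 did not pass. Rest itself, named after its value was seen, went from 88.7 ± 4.84 CPM to 108.0 ± 6.41 CPM (SD, n = 3), higher by 0.28 on the log2 scale (edgeR, adjusted p = 0.000105). Its cofactor genes Rcor2 and Ehmt2 rose by 0.37 and 0.29, and Rcor1 and Ctdsp1 fell by 0.26 and 0.28 on the log2 scale.

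Synapse and transmitter genes, which mark later neurons, showed no common direction. Of 22 tested, 6 rose, 9 fell and 7 did not pass, with a median log2 fold change of -0.15. Their summed level was 178.2 to 196.6 CPM in knockout and 168.5 to 189.0 CPM in induced libraries. Gad1 fell from 19.5 to 3.31 CPM and Gad2, the other gene for the enzyme that makes GABA, rose from 0.834 to 5.48 CPM. The noradrenaline synthesis gene Dbh rose from 0.070 to 30.4 CPM (log2 fold change 8.64). Th, from the same list, was too low to be tested, at 0.261 CPM in knockout and 0.197 CPM in induced libraries. The vesicle genes Syn2 (3.75) and Syt1 (1.50) rose on the log2 scale. Rbfox3, the gene of the mature neuron marker NeuN, was too low to be tested, at 0.121 and 0.349 CPM.

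**Figure D4:**
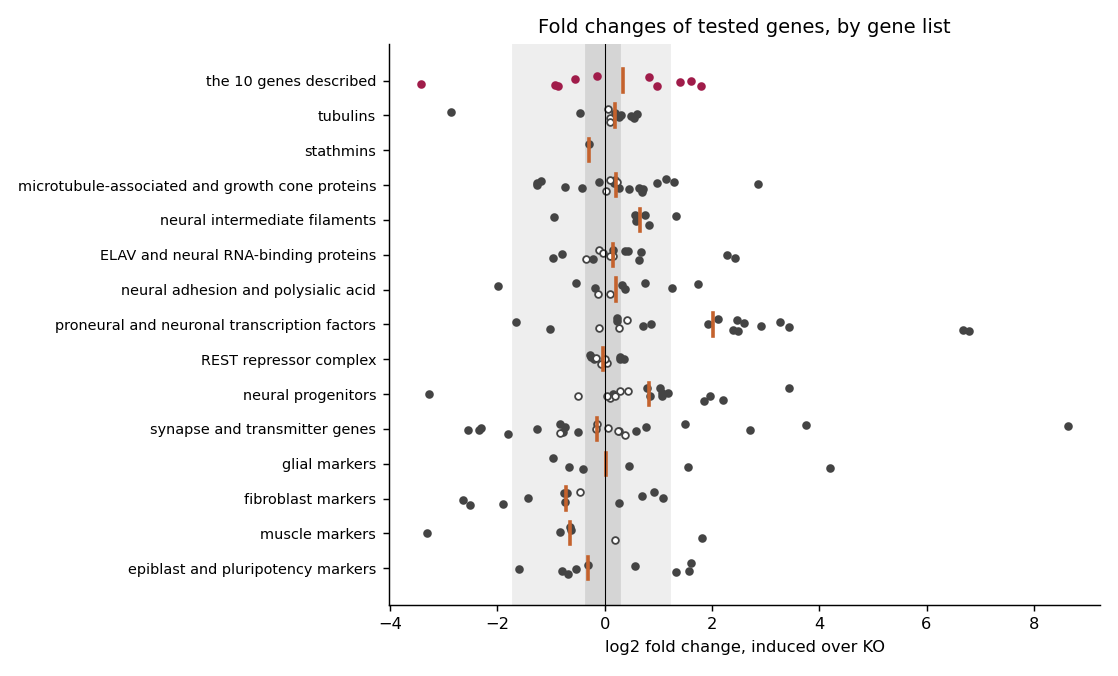
Log2 fold changes of the 10 genes (red) and of the other tested genes of each list (grey, open where the test was not passed), with list medians as orange bars. Bands show the 25th to 75th (-0.36 to 0.29) and 5th to 95th (-1.71 to 1.22) percentiles of all 15091 tested genes. Transcription factors of neuron formation have a median of 2.02, and the 10 genes lie on both sides of 0.

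Genes of fibroblasts and muscle, cells that also carry nestin, NCAM1 and some of the cytoskeletal genes, moved with the groups too. All 12 fibroblast markers were tested, and 7 fell, 4 rose and 1 did not pass, with a median log2 fold change of -0.72. Their summed level was 935.9 to 1142 CPM in knockout and 519.3 to 703.5 CPM in induced libraries, and none was at 0. Acta2 fell from 246.3 to 43.3 CPM, Dcn from 6.30 to 1.01 CPM, Twist2 from 7.39 to 2.75 CPM and Prrx1 from 30.2 to 17.9 CPM, while Col1a2 rose from 95.1 to 201.9 CPM. Of 6 tested muscle markers 4 fell and 1 rose, with summed levels of 196.3 to 262.8 CPM in knockout and 145.8 to 164.6 CPM in induced libraries. The defining muscle factor genes Myod1, Myog and Myf5 were not tested, at 0.052, 0.169 and 0.138 CPM in knockout libraries. The part of these cells in the falls of Nes, Map2, Dcx and the stathmin genes, or in the rise of Ncam1, was not tested.

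In the authors' deposited table, which is close to a count without strand, the 10 genes had the same directions as here. Its log2 fold changes differed from those computed here by at most 0.0252, and 8 of the 10 had an adjusted p under 0.05 there. The exceptions were Stmn2 (log2 fold change -0.13, adjusted p = 0.104) and Stmn3 (-0.58, adjusted p = 0.155) in the authors' deposited table. For Nefl the authors' deposited table gives 0.47, against 0.58 from stranded reads.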

How the data were processed

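Per the labels' protocols, a TruSeq Stranded mRNA kit gave the libraries. The submitters' processing notes name STAR, bcl2fastq, DESeq2 and the mm10 genome. Their versions, and the annotation, were not given in the sources used here. For each library the authors deposited raw read counts per gene in 3 columns. The column for the strand of the kit, holding 96.2% to 96.3% of stranded gene reads, was used. Rows that name no gene took 15.1% to 17.6% of reads and were left out, multimapped reads (6.79% to 7.66%) among them. The authors also deposited a DESeq2 table holding, per the file headers, a mean normalised signal, log2 fold changes with standard errors, a Wald score, p-values and their −log10.

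Identifiers were matched to GENCODE M21 (55230 of 55471), which gave symbols, positions and exon lengths. The test was that of edgeR 4.0.16 under R 4.3.3 (filterByExpr, TMM, robust quasi-likelihood fit, group as the only term, two-sided, Benjamini-Hochberg over 15091 genes, threshold 0.05). Fold changes are induced over knockout, and a standard error is the absolute log2 fold change over the square root of F. The script was tested on simulated data. Alternatives used DESeq2 1.42.0, limma 3.58.1 (voom), other scaling, filters and counting, a replicate term, a 2-fold null and each library left out. The 10 genes and all lists were chosen with earlier results of these data known. Named from each list were up to 4 called genes with the smallest p and at least 5 CPM in the higher group, genes called at 2-fold or more against the list's direction, and every gene of the stathmin list. Exceptions are marked in the text, apart from genes that were not tested or did not pass. Some genes that the rule names are not reported here.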

Additional observations from a re-analysis of the deposited data

Results flagged for a closer look

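Reads on the strand opposite Nefm are not in its stranded count. They were well above the limit of 3 reads that a count of 0 allows. The lowest library held 593 of them and the 6 libraries together 5083. At the other 9 genes no library exceeded 7 such reads. Nefl, whose exons overlap those of Nefm on that strand, lost 48.1% of its reads when strand was ignored. In every library that loss nearly equalled the reads opposite Nefm. In induced replicate 1, Nefl had 2317 stranded and 1189 unstranded reads, and 1128 reads lay opposite Nefm. The stranded count of Nefl used here thus already holds nearly all of these reads. That count rose in the induced libraries (log2 fold change 0.58, edgeR, adjusted p = 1.4e-08).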

How the results depend on the processing

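No fold change of the 10 genes reversed in the 15 alternatives, and 128 of 150 gene-by-setting results kept their call. Against a 2-fold change 1628 genes passed in all, 3 of the 10, with 2 higher and 1 lower. With DESeq2 or limma-voom 3 of the 10 were called lower. Leaving out a library gave 8863 to 9225 calls over all genes, 8 to 9 among the 10, 5 higher throughout and 3 to 4 lower, since the calls for Stmn2 and Stmn3 were lost. Over the alternatives other than the 2-fold test, the adjusted p ran from 0.00137 to 0.257 for Stmn2 and from 0.0385 to 0.159 for Stmn3. Of 420 list counts 398 stayed within 1.5 times the value given, and 22 moved, each of them under the 2-fold test. Replicate numbers share no stated origin, and same-numbered libraries correlated at -0.003, 0.046 and 0.040 in their deviations from the group means. With the replicate number as a block 9647 genes and 9 of the 10 were called, 5 higher and 4 lower. Depth limits Mapt, Elavl3 and Stmn3 most, with 17 to 83 reads per library and standard errors of 0.21 to 0.24.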

Other observations

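Markers of other cell types gave further values. Of 6 tested glial markers 3 rose and 3 fell. Pdgfra, also a gene of mesoderm, rose from 14.6 ± 0.838 to 42.7 ± 3.57 CPM (SD, n = 3), and Mbp rose from 19.9 to 27.2 CPM. Mog had no read, and Olig2, S100b and Gfap were too low to be tested. Of 9 tested epiblast and pluripotency markers 4 rose and 5 fell. Nanog fell from 161.3 to 53.5 CPM and Dnmt3b from 228.3 to 158.7 CPM, while Otx2 rose from 15.2 to 38.5 CPM, Fgf5 from 19.5 to 59.4 CPM and Tdgf1 from 254.0 to 760.6 CPM. Among muscle markers Des (log2 fold change -0.83), Actc1 (-0.63) and Acta1 (-0.64) fell and Ttn (1.82) rose. These changes passed an adjusted p of 0.05 in edgeR.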
